A study of Mus musculus with 7 samples.

Results

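Chl1, Gria2, Fam155a, Nxph1, Kcnd3, Actn2, Rftn2, Slc22a3, Itgb5 and Wdr49 are 10 of the 32285 genes in the feature table of this series, and most of them encode proteins of cell adhesion, ion channels or membrane transport. They were chosen by symbol because their RNA was lower in B4galt1 knockout than in WT libraries, so the label differences given here describe the values that chose them and carry no test. Which cell state expressed each gene was tested within libraries, a contrast the choice did not use directly. The choice still bears on it. In KO libraries the shares of lymphoid-gated and stem-gated cells were lower and that of granule-gated cells was higher. This favours genes high in lymphoid-gated or stem-gated cells and low in granule-gated cells. All 10 symbols were found. The libraries hold single-cell 3' RNA counts (UMIs, unique molecular identifiers, 1 per captured RNA molecule) of mouse bone marrow LSK cells, the lineage-negative, Sca-1 and cKit positive fraction that holds stem and multipotent progenitor cells. The KO group (3 libraries) has the genotype 129S1/C57Bl/6, B4-/-, and the WT group (4 libraries) the genotype 129S1/C57Bl/6. The labels name no treatment and no age, and they do not say whether replicates came from separate mice. P-values therefore measure the spread between these libraries.

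B4galt1 encodes a galactosyltransferase that adds galactose to the N-glycans of glycoproteins, among them many adhesion and membrane proteins. LSK cells comprise quiescent and cycling stem cells and progenitors already biased to the lymphoid or myeloid lineages, and a gene used by 1 of these states moves in the pooled library when the share of that state moves. Most of the genes described here are best known from neurons and muscle, where cell contact, synaptic current and sarcomere structure depend on them.

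Cells with at least 1000 UMIs, 500 genes and at most 10% mitochondrial UMIs were kept, which left 1172 to 8862 cells per library with a median of 8046 to 11084 UMIs per cell. The libraries carried 2 different sets of cell barcodes, called list A (KO 1, KO 2, WT 1 to 3) and list B (KO 3, WT 4). In list A 32.4% to 49.9% of the deposited barcodes were kept and in list B 96.2% and 98.3%. KO 3 and WT 4 shared 88 barcodes, and every other pair of libraries between 0 and 7. Each list holds both labels, so the list entered the label fits as a covariate and label ratios are also given within each list. Kit was read at 137 to 311 CPM (UMI counts scaled to a common library total) and Ly6a, which encodes Sca-1, at 16.6 to 48.2 CPM in every library. Cd3e and Ms4a1, which mark T and B cells, were at most 0.493 CPM. Wider sets of mature-cell markers were higher over all kept cells. The neutrophil set (5 genes) summed to 4054, 681, 3378, 2088 and 4252 CPM in KO 1, KO 2 and WT 1 to 3 (list A). In list B it summed to 13.7 CPM in KO 3 and 102 CPM in WT 4. The T and natural killer cell set summed to 64.7 to 236 CPM and the B cell set to 19.95 to 50.1 CPM. The part of these cells in the label differences was not tested. B4galt1 itself was read at 53.2, 53.1 and 31.8 CPM in KO 1 to 3 and at 54.1, 60.8, 52.1 and 39.5 CPM in WT 1 to 4, so its 3' counts did not separate the labels. Which part of the gene is deleted is not given in the sources used here, and a 3' tag outside that part checks nothing.

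Cells were assigned to states by marker genes, none of which is among the 10. Stem-gated cells had UMIs of at least 3 of Procr, Fgd5, Hlf, Mecom and Mllt3. Lymphoid-gated cells had at least 2 UMIs of Dntt, Il7r, Rag1 and Rag2, and granule-gated cells at least 20 UMIs per 10000 of Mpo, Elane, Prtn3 and Ctsg. Stem-gated cells made up 28.3% to 29.5% of the kept cells in KO and 36.9% to 54.9% in WT libraries, lymphoid-gated cells 7.49% to 14.2% and 20.8% to 22.9%, and granule-gated cells 20.6% to 39.7% and 2.87% to 9.0%. The ranges of the groups did not overlap in any of these 3 states. The summed stem marker level within stem-gated cells was 1062 to 2714 CPM in KO and 1153 to 2795 CPM in WT libraries. At least 4 stem markers were found in 276 of 868, 116 of 491 and 697 of 2024 stem-gated cells in KO 1 to 3. In WT 1 to 4 they were found in 201 of 558, 245 of 617, 402 of 823 and 1293 of 3266. Granule markers within stem-gated cells summed to 706, 616 and 661 CPM in KO and 438, 475, 360 and 515 CPM in WT. The part of these shifts in the label differences within stem-gated cells was not tested.

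The promoters of 8 of the 10 genes were matched in RefSeq (GRCm38.p6, the mm10 assembly that the submitters' processing notes name), as 250 bases before to 50 after the transcript start. Fam155a and Rftn2 had no entry. Promoters of Actn2 and Chl1, which were higher in lymphoid-gated cells, and of Kcnd3, which was higher in stem-gated cells, are shown so that genes of opposite state preference can be compared, with Itgb5 as the gene lower in KO across several states. The Actn2 window is chr13:12340683-12340982 on the minus strand, that of Chl1 chr6:103510626-103510925 on the plus strand, that of Kcnd3 chr3:105451640-105451939 on the plus strand and that of Itgb5 chr16:33829415-33829714 on the plus strand. Capitals mark a RUNX-type motif (TGTGGT, found here as its reverse complement ACCACA) in Actn2 and an E-box (CAGCTG) in Kcnd3 and Itgb5.
Actn2: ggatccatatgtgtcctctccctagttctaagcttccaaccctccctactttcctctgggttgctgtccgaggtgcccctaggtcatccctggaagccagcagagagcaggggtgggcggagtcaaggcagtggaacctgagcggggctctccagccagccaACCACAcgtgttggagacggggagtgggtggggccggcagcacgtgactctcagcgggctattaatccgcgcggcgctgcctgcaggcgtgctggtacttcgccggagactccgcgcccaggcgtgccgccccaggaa
Chl1: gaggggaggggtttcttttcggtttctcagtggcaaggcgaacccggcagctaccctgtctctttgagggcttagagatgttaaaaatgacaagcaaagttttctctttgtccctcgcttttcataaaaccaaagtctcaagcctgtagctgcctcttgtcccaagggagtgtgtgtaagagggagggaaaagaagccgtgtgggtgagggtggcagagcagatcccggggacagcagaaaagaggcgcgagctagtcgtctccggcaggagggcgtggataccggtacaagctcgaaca
Kcnd3: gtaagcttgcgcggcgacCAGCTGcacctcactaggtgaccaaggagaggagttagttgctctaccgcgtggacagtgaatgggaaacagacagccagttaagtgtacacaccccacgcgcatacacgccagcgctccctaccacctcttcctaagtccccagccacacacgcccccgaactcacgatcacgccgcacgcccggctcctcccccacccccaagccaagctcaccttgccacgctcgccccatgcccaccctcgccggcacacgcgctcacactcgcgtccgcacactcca
Itgb5: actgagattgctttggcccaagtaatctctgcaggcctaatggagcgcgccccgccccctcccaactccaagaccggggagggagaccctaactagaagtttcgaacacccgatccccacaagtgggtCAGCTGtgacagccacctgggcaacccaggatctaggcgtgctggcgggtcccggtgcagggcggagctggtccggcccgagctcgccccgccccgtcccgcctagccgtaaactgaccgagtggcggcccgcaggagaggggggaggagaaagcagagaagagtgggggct

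On either strand, TGTGGT was present in 1 of the 8 matched promoters and in 16.8% of all 32817 promoter windows of this length. CAGCTG was present in 2 of the 8 and in 16.3% of all windows. The GATA-type motif AGATAA, present in 11.2% of all windows, was found in 0 of the 8. The same was true of the LEF-type motif CTTTGAT (3.73% of all windows). It was also true of the ETS-type motif CCGGAAG (8.86% of all windows). None of the 8 windows held more than 1 of these motifs. A match of letters describes the sequence and not the binding of a factor.

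The 10 genes were long. Chl1 spans 239.6 kb of chromosome 6, Nxph1 300.6 kb of the same chromosome, Fam155a 565.3 kb of chromosome 8 and Gria2, Wdr49 and Kcnd3 121.4, 207.2 and 221.7 kb of chromosome 3. Slc22a3 spans 88.7 kb of chromosome 17, Itgb5 119.7 kb of chromosome 16, Actn2 71.3 kb of chromosome 13 and Rftn2 56.6 kb of chromosome 1, against a median of 22.5 kb over the 14598 tested genes with a GENCODE entry. The shortest of the 10, Rftn2, was longer than 75.9% of these genes. Chl1, Fam155a, Kcnd3, Rftn2, Slc22a3 and Wdr49 overlap annotated genes on the other strand, among them Kcnd3os for Kcnd3 and Plg for Slc22a3. The sources used here do not state how reads in these overlaps were counted, and this was not checked.

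In sums over all kept cells, 8 of the 10 genes passed the adjusted threshold of 0.05 in the label fit (edgeR), in which 1.11% of 14608 tested genes passed and 0.637% passed as lower in KO. In 9 of the 10 every KO library lay below every WT library, as in 3.07% of tested genes. These counts follow from how the genes were chosen. Nxph1 and Slc22a3 lay outside the threshold, and Itgb5, Kcnd3, Rftn2 and Wdr49 lay closest inside it. Without the barcode list in the model 0 of the 10 passed, as did 0 of all genes. In that fit (edgeR) 9 of the 10 had an unadjusted p under 0.05, against 697 of all 14608 tested genes. In list A alone all 10 passed, where 362 of all 14845 tested genes did. Without WT 3 the fit called 2 of the 10, against 16 of all 15569 tested genes. Without WT 1 it called 5 of the 10, against 58 of all 15684 tested genes. In sums over a whole library a lower share of a cell state and less RNA per cell cannot be told apart, which is why values within states follow.

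**Figure D1:**
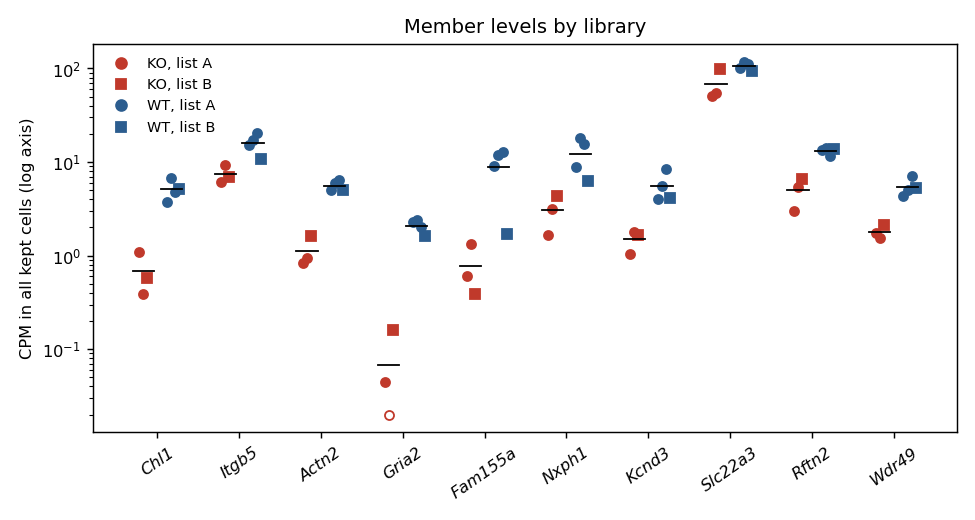
Levels of the 10 genes in CPM (log axis, TMM scaling) over all kept cells, 1 point per library, circles for barcode list A and squares for list B, black lines for group means, and an open circle at the bottom for the KO library with no Gria2 count. KO points lie below WT points for every gene but Slc22a3, where the list B KO square lies at 98.6 CPM among the WT points.

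Among the adhesion genes, Chl1 encodes an L1-family cell adhesion molecule of the nervous system that takes part in axon guidance. Its level over all kept cells was 1.09, 0.388 and 0.579 CPM in KO 1 to 3 and 3.78, 6.72, 4.78 and 5.15 CPM in WT 1 to 4. The groups did not overlap, and the log2 difference was -2.83 (SE 0.36, 3 KO and 4 WT libraries). It was -2.79 within list A and -3.15 within list B, so both lists showed a difference of similar size. In lymphoid-gated cells Chl1 was at 2.02, 0 and 1.95 CPM in KO and at 10.2, 19.2, 10.4 and 13.3 CPM in WT libraries (-3.02, SE 0.42), and the groups were far apart. In stem-gated cells they overlapped, at 0.766, 1.17 and 0.244 CPM against 0.573, 1.26, 2.80 and 1.59 CPM, with ratios of -0.67 in list A and -2.70 in list B.

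In WT libraries most Chl1 UMIs came from lymphoid-gated cells, with 38 of 51, 72 of 97, 52 of 90 and 247 of 406 in WT 1 to 4. In KO 1, 27 of 49 came from granule-gated cells, and in KO 3 21 of 40 from lymphoid-gated cells. Scaled by total UMIs, in lymphoid-gated WT cells it was read at 10.7, 20.7, 10.8 and 11.7 CPM and in the other kept cells of the same libraries at 1.38, 2.72, 3.05 and 2.33 CPM. KO 1 and KO 3 had 2.08 and 1.68 CPM in lymphoid-gated cells against 0.979 and 0.281 CPM elsewhere, and KO 2 had no count in 154 such cells. The lymphoid-gated level was 5.00-fold that of the other kept cells, a log2 difference of 2.32 (SE 0.24, adjusted p = 1.13e-05, edgeR quasi-likelihood test with each library as a block, higher in 6 of 7 libraries). It was lost in KO libraries alone (1.66, adjusted p = 0.0740, edgeR). In stem-gated cells Chl1 was lower than elsewhere, with a difference of -1.998 on the log2 scale (SE 0.39, adjusted p = 0.00164, edgeR). This stem difference was -2.33 in WT libraries alone and -0.53 in KO libraries alone, where it did not pass (adjusted p = 0.545, edgeR). The difference between labels in that contrast was not tested.

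Itgb5 encodes integrin beta-5, which pairs with the alpha-v subunit as a receptor for vitronectin. Itgb5 was read at 6.06, 9.36 and 6.89 CPM in KO and at 15.3, 17.1, 20.3 and 10.7 CPM in WT libraries over all kept cells, a log2 difference of -1.03 (SE 0.20). The gap between the highest KO and the lowest WT library was small, 9.36 against 10.7 CPM, and with scaling by total UMIs they overlapped (9.79 CPM in KO 2 against 9.44 CPM in WT 4). In stem-gated cells the groups stood further apart, at 6.76, 5.87 and 6.84 CPM in KO and 18.9, 17.5, 21.4 and 11.5 CPM in WT, with a log2 difference of -1.28 (SE 0.21). Within list A the stem-gated log2 ratio was -1.61 and within list B -0.75. In granule-gated cells the ratio was -0.64 in list A and 0.22 in list B, so the list B direction there was opposite.

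Over all 7 libraries Itgb5 differed little between states. It was higher in lymphoid-gated cells by 0.45 on the log2 scale (SE 0.11, adjusted p = 0.00821, edgeR, higher in 6 of 7 libraries), and this call was lost in list A alone (0.31, adjusted p = 0.192), with a stricter gate (adjusted p = 0.102) and without KO 3 (adjusted p = 0.0507). Neither the stem-gated contrast (-0.05, SE 0.12, adjusted p = 0.715) nor the granule-gated contrast (-0.24, SE 0.15, adjusted p = 0.194) passed in edgeR. In WT libraries alone Itgb5 was lower in granule-gated cells (-0.73, adjusted p = 0.00179, edgeR). In KO libraries alone the sign was opposite (0.19, adjusted p = 0.336, edgeR). The difference between labels in that contrast of Itgb5 was not tested. Its usual partner Itgav, the alpha-v integrin subunit, had a log2 label difference of -0.24 (adjusted p = 0.388, edgeR), and Itgb1 one of -0.06 (adjusted p = 0.842, edgeR). On chromosome 16 Itgb5 begins 9730 bases beyond the end of Muc13, which encodes a transmembrane mucin. Muc13 was read at 91.0, 86.0 and 119 CPM in lymphoid-gated KO cells and at 36.3, 48.1, 39.9 and 57.6 CPM in WT, the opposite direction to its neighbour. In these cells the log2 label difference of Itgb5 was -0.66 (SE 0.25) and did not pass (adjusted p = 0.611, edgeR). That of Muc13 was 0.41 over all kept cells (adjusted p = 0.294, edgeR) and 0.56 in stem-gated cells (adjusted p = 0.484, edgeR), and neither passed. Muc13 was picked for mention after its values were seen.

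Actn2 encodes alpha-actinin-2, the actin cross-linker of the muscle Z-disc. Over all kept cells it was read at 0.843, 0.942 and 1.61 CPM in KO and at 4.97, 5.96, 6.48 and 5.00 CPM in WT libraries. The highest KO library lay well below the lowest WT library, and the log2 difference was -2.33 (SE 0.28). In lymphoid-gated cells the levels were 4.72, 3.37 and 5.10 CPM in KO and 9.42, 13.6, 14.6 and 10.7 CPM in WT (-1.34, SE 0.26), and in stem-gated cells 1.40, 2.06 and 1.16 CPM against 3.05, 4.10, 3.77 and 3.45 CPM (-1.32, SE 0.33). The groups were separate in both states.

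Of the 10 genes Actn2 had the smallest adjusted p for the lymphoid state. It was 4.18-fold higher in lymphoid-gated cells than in the other kept cells (log2 2.06, SE 0.16, adjusted p = 1.08e-06, edgeR, higher in 7 of 7 libraries), and the contrast passed in WT libraries alone (1.82) and in KO libraries alone (2.59, adjusted p = 0.000238, edgeR). With every cell thinned to 3000 UMIs, Actn2 had a UMI in 1.32% to 3.33% of lymphoid-gated KO cells and in 3.08% to 5.62% of WT cells, leaving out 14 KO and 25 WT cells below that depth. In granule-gated cells, which were deeper (median 14256 to 22514 UMIs against 9678 to 13552), the thinned share was at most 0.211%. Without thinning, the lymphoid-gated shares were 3.25% to 4.74% and 8.68% to 13.1%. In stem-gated cells Actn2 was lower by -0.75 (adjusted p = 0.0387, edgeR), a call that was lost with DESeq2 (adjusted p = 0.106), without KO 3 or any 1 of the WT libraries (adjusted p from 0.0779 to 0.125) and in KO libraries alone, where the sign was opposite (0.23). Of the 5 muscle markers, Myh1 and Myh4 were at 0 in every library, and the sum of all 5 was 1.66 to 4.00 CPM in KO and 1.64 to 2.63 CPM in WT libraries. Their part in the Actn2 difference was not tested. The ubiquitous actinins Actn1 and Actn4 had label differences of -0.16 and 0.14 (adjusted p = 0.614 and 0.499, edgeR).

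**Figure D2:**
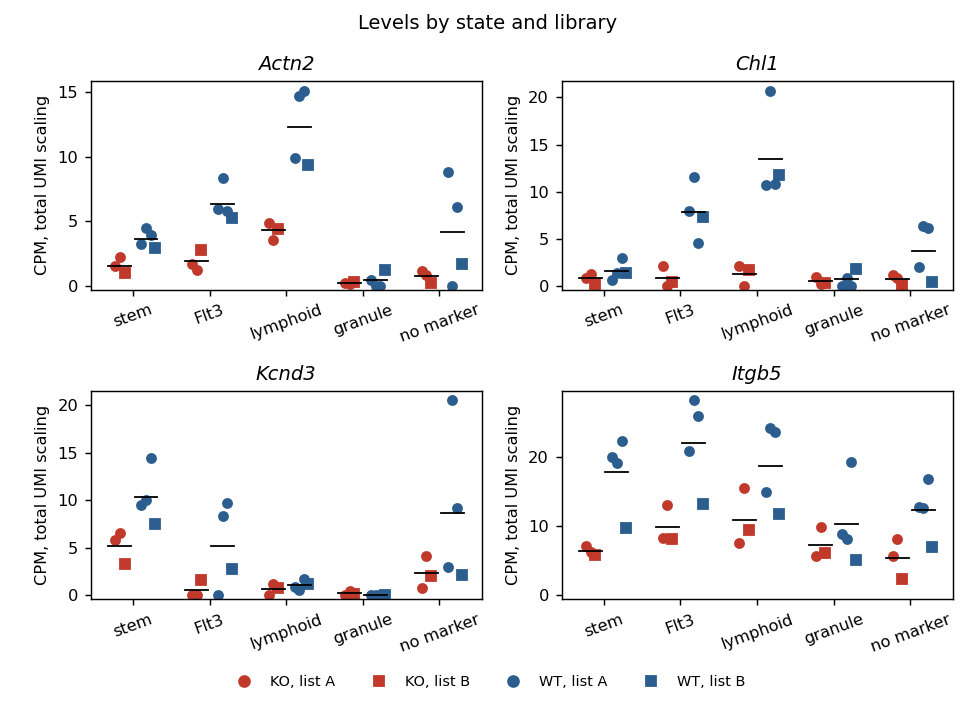
Levels of Actn2, Chl1, Kcnd3 and Itgb5 by cell state in CPM scaled by total UMIs, 1 point per library and state, circles for list A, squares for list B and black lines for group means. Actn2 and Chl1 peak in lymphoid-gated WT cells (9.39 to 15.1 and 10.7 to 20.7 CPM), Kcnd3 is high in stem-gated cells, and Itgb5 is spread over the states.

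Among the channel genes, Gria2 encodes the AMPA glutamate receptor subunit that limits the calcium permeability of the channel. It had 2, 0 and 11 UMIs in KO 1 to 3 and 31, 35, 38 and 129 UMIs in WT 1 to 4, or at most 0.159 CPM in KO and 1.64 to 2.43 CPM in WT. The log2 difference was -4.51 (SE 0.56), which rests on few UMIs in KO. In stem-gated cells no KO library had a Gria2 UMI and WT libraries had 0.191 to 0.646 CPM. In lymphoid-gated cells it was read at 0.337, 0 and 0.928 CPM in KO and 7.27, 2.94, 6.19 and 4.31 CPM in WT. Gria2 did not pass the low-count filter of the state contrasts. Without that filter it was higher in lymphoid-gated cells by 2.67 (SE 0.48, adjusted p = 0.00271, edgeR) and lower in stem-gated cells by -2.67 (SE 0.36, adjusted p = 7.36e-06, edgeR). Few cells held these UMIs in list A. The 3 cells with the most held 74.2%, 68.6%, 42.1% and 10.9% of them in WT 1 to 4. In WT 2 the lymphoid-gated level was 3.16 CPM against 2.61 CPM in the other kept cells (scaled by total UMIs).

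The related subunit Gria3 moved the other way. It was read at 350, 484 and 110 CPM in KO and 174, 173, 143 and 69.4 CPM in WT libraries, a log2 difference of 1.15 (SE 0.19, adjusted p = 0.0299, edgeR) in which KO 3 lay among the WT libraries and above WT 4, its list partner. Gria3 was higher in granule-gated cells by 1.34 (adjusted p = 1.51e-05, edgeR), whose share was higher in KO. It was also higher in KO within lymphoid-gated cells, by 1.03 (SE 0.14, adjusted p = 0.00352, edgeR), and in stem-gated cells the difference was 0.39 (SE 0.19, adjusted p = 0.9999, edgeR). Gria1 and Gria4 were at most 0.333 CPM in every library.

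Fam155a encodes a membrane partner of the sodium leak channel NALCN. Fam155a was read at 0.599, 1.33 and 0.391 CPM in KO and at 9.05, 11.9, 12.7 and 1.71 CPM in WT libraries. The 3 WT libraries of list A were high and WT 4 lay just above KO 2. The log2 difference was -3.18 (SE 0.38), or -3.54 within list A and -2.13 within list B.

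These Fam155a counts were held by few cells. In WT 3, 19 of 1500 cells had a Fam155a UMI, 1 cell held 147 of the 239 UMIs, and the 3 cells with the most held 85.8%. In WT 2 the 3 cells with the most held 61.4%, in WT 1 50.8%, in WT 4 21.5% and in KO 2 83.3%. Without the 3 cells with the most UMIs in each library the level, scaled by total UMIs, was 0.299, 0.233 and 0.138 CPM in KO and 4.65, 5.22, 1.97 and 1.19 CPM in WT. WT 3 thus moved from the highest to the third highest of the WT libraries, and the groups stayed apart. In lymphoid-gated cells it was at 3.03, 0.562 and 2.23 CPM in KO and at 22.3, 23.8, 34.8 and 4.36 CPM in WT libraries, with ratios of -3.91 in list A and -0.97 in list B. In stem-gated cells the groups overlapped (1.53, 4.11 and 0 CPM against 4.77, 1.26, 6.89 and 0.699 CPM). By state, Fam155a was higher in lymphoid-gated cells by 2.42 (SE 0.31, adjusted p = 0.000108, edgeR, higher in 6 of 7 libraries), a call lost in KO libraries alone (2.72, adjusted p = 0.121, edgeR). Its stem-gated contrast (-1.42, SE 0.60, adjusted p = 0.0671, edgeR) did not pass, and did in WT libraries alone (-2.05, adjusted p = 0.0144, edgeR). Nalcn itself was read at 0.106 to 0.174 CPM in every library.

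**Figure D3:**
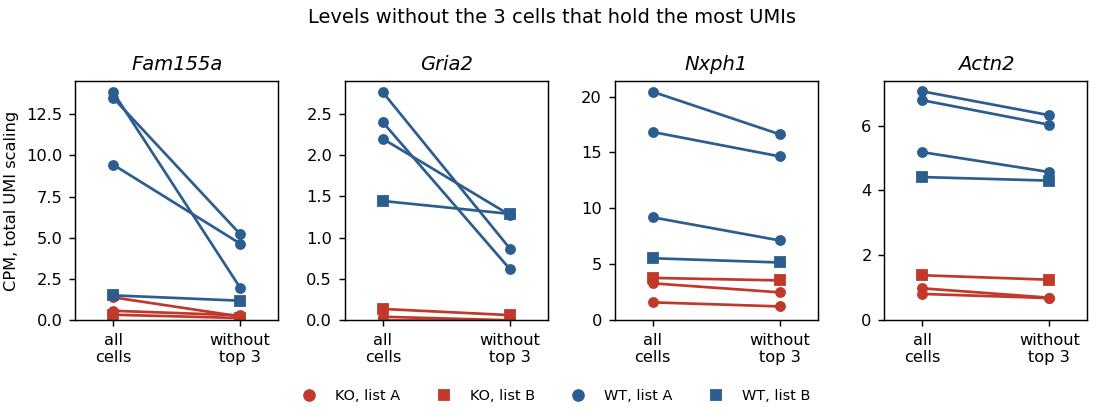
Levels of Fam155a, Gria2, Nxph1 and Actn2 in CPM scaled by total UMIs, for all kept cells and without the 3 cells that hold the most UMIs of that gene, 1 line per library (red KO, blue WT, circles list A, squares list B). The Fam155a line of WT 3 falls from 13.8 to 1.97 CPM, while Actn2 lines fall little.

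Nxph1 encodes neurexophilin-1, a secreted glycoprotein that binds alpha-neurexins at synapses. Nxph1 was read at 1.66, 3.16 and 4.39 CPM in KO and at 8.82, 18.0, 15.4 and 6.28 CPM in WT libraries, a log2 difference of -1.92 (SE 0.50). Within list A the log2 ratio was -2.55 and within list B -0.52, so the smaller difference was that between KO 3 and WT 4. Within list B the ratio was -0.31 in stem-gated, -0.69 in lymphoid-gated and 0.09 in granule-gated cells. Nxph1 was lower in granule-gated cells by -1.63 (SE 0.25, adjusted p = 4.30e-05, edgeR, lower in 7 of 7 libraries) and did not differ beyond its error in lymphoid-gated cells (-0.07, SE 0.15, adjusted p = 0.797, edgeR). It was higher in stem-gated cells by 0.47 (adjusted p = 0.0144, edgeR), which was lost when granule-gated and mature cells were left out of the comparison (0.19, adjusted p = 0.202) and with a gate of 4 stem markers (0.01, adjusted p = 0.974). Nxph2, Nxph3 and Nxph4 were at most 0.166 CPM.

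Kcnd3 encodes the voltage-gated potassium channel Kv4.3, which carries transient outward current in heart and brain. It was read at 1.04, 1.77 and 1.65 CPM in KO and at 4.00, 5.61, 8.33 and 4.11 CPM in WT libraries over all kept cells, a log2 difference of -1.86 (SE 0.33). In stem-gated cells the levels were 5.49, 6.17 and 3.79 CPM in KO and 8.97, 9.14, 13.8 and 8.77 CPM in WT, a difference of -1.01 (SE 0.23). The groups were separate in both, with a smaller gap among stem-gated cells.

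Kcnd3 was 5.32-fold higher in stem-gated cells than in the other kept cells (log2 2.41, SE 0.33, adjusted p = 0.000271, edgeR, higher in 7 of 7 libraries), and lower in lymphoid-gated (-2.12, adjusted p = 9.15e-05) and granule-gated cells (-4.21, adjusted p = 4.84e-08). In granule-gated cells all 4 WT libraries had no Kcnd3 count and KO 1 to 3 had 2, 4 and 4 UMIs, so that fitted value rests on few UMIs. It was -3.65 in KO libraries alone (adjusted p = 0.000491, edgeR). A value fitted in WT libraries alone depends on the prior count and is no bound. The stem contrast passed in WT libraries alone (2.08) and in KO libraries alone (2.99, adjusted p = 0.0100, edgeR). The lymphoid-gated call was lost in KO libraries alone (-1.15, adjusted p = 0.197, edgeR). Cells without any marker had less Kcnd3 than stem-gated cells in every library but WT 2, where they had 20.5 CPM against 9.98 CPM (both scaled by total UMIs), from 13 UMIs in 6 cells. Among stem-gated cells outside the cycling gate (UMIs of at least 2 of 5 cycling markers) the levels were 9.24, 9.23 and 4.84 CPM in KO and 16.2, 15.3, 17.9 and 9.42 CPM in WT, and among cycling ones 0.673, 2.93 and 0.563 CPM and 3.13, 5.81, 9.96 and 4.42 CPM. Every library was thus higher in the non-cycling cells. The difference between cycling and non-cycling cells was described after seeing the values and was not tested. Kcnd1 had a label difference of -0.26 (adjusted p = 0.687, edgeR), and Kcnd2 was at most 0.265 CPM.

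**Figure D4:**
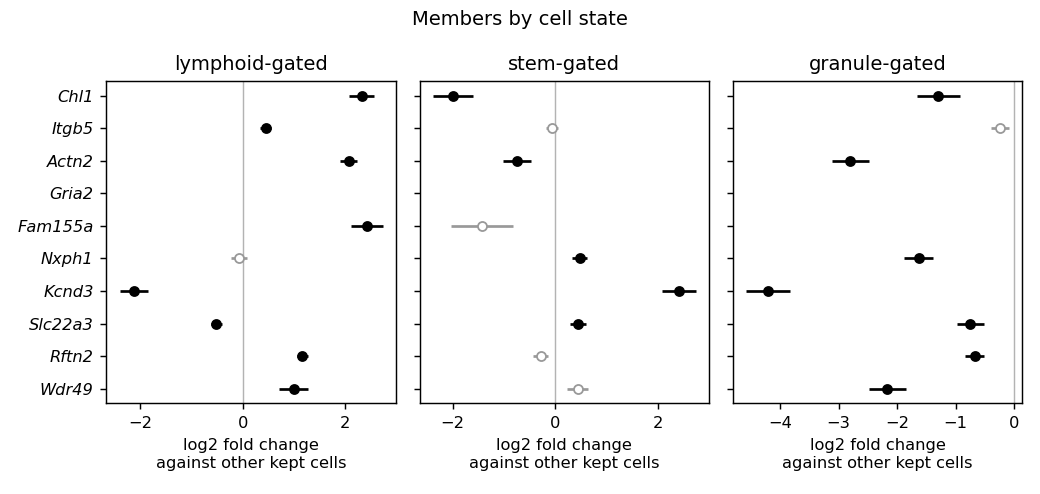
Log2 fold change (points) and standard error (bars) of each gene in lymphoid-gated, stem-gated and granule-gated cells against the other kept cells of the same library, black filled where the adjusted p was below 0.05 (edgeR). Chl1, Actn2, Fam155a and Rftn2 lie on the positive side in the lymphoid panel, Kcnd3 on the positive side in the stem panel, and all 8 genes tested in the granule panel lie below 0.

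The transporter gene Slc22a3 encodes organic cation transporter 3, which carries monoamines and other cations. It was read at 50.6, 54.6 and 98.6 CPM in KO and at 100.3, 118, 112 and 94.8 CPM in WT libraries, with a log2 difference of -0.73 (SE 0.21). The groups overlapped. In list A the KO libraries were lower (log2 ratio -1.07), and in list B KO 3 and WT 4 were close (0.06, and -0.05 with scaling by total UMIs over the main states). In lymphoid-gated cells every KO library was lower, at 48.2, 21.9 and 57.8 CPM against 81.8, 81.8, 91.1 and 82.1 CPM, with a ratio of -1.28 in list A and -0.51 in list B. In cells without any marker the ratios were -0.02 and 0.06. Slc22a3 was lower in lymphoid-gated (-0.51, SE 0.11, adjusted p = 0.00432) and granule-gated cells (-0.75, SE 0.23, adjusted p = 0.0249, edgeR). In all 7 libraries it was higher in cells without any marker than in stem-gated cells, at 138, 177 and 123 CPM in KO and 151, 184, 142 and 118 CPM in WT against 100.7, 105, 82.2, 134, 171, 136 and 80.3 CPM (scaled by total UMIs). The few erythroid-basophil cells, 3 to 188 per library, had 96.2 to 573 CPM. Neither of these states was tested. The higher level in stem-gated cells than in all others (0.44, adjusted p = 0.0370, edgeR) was lost without KO 1, KO 2, WT 1 or WT 2 (adjusted p from 0.0733 to 0.160), and when granule-gated and mature cells were left out (0.09, adjusted p = 0.583). The granule-gated call was lost without KO 1, KO 2 or WT 1 (adjusted p from 0.0542 to 0.0564). The lymphoid-gated call was lost in KO libraries alone (-0.70, adjusted p = 0.074, edgeR).

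Of the remaining genes, Rftn2 encodes a protein of the raftlin family, which is associated with lipid rafts of the plasma membrane. Rftn2 was read at 3.02, 5.37 and 6.62 CPM in KO and at 13.3, 14.0, 11.7 and 13.6 CPM in WT libraries, a log2 difference of -1.46 (SE 0.23). In stem-gated cells the levels were 4.85, 4.99 and 5.68 CPM against 11.1, 14.2, 10.3 and 11.3 CPM (-1.16, SE 0.20), and in lymphoid-gated cells 9.10, 11.8 and 12.2 CPM against 21.5, 20.6, 18.8 and 23.4 CPM (-0.96, SE 0.17). The groups did not overlap in either state, and the ratios within list A (-1.27 and -0.96) and list B (-0.997 and -0.93) were close to each other. Rftn2 was higher in lymphoid-gated cells by 1.16 (SE 0.10, adjusted p = 2.88e-06, edgeR, higher in 7 of 7 libraries), in WT libraries alone (1.04) and in KO libraries alone (1.39, adjusted p = 0.000875, edgeR). Its paralogue Rftn1 had a label difference of 0.15 (adjusted p = 0.721, edgeR).

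Wdr49 encodes a WD-repeat protein. It was read at 1.73, 1.55 and 2.14 CPM in KO and at 4.30, 5.06, 7.06 and 5.34 CPM in WT libraries, a log2 difference of -1.59 (SE 0.25). In stem-gated cells it was read at 3.57, 2.64 and 2.81 CPM against 6.87, 5.04, 7.42 and 6.01 CPM (-1.04, SE 0.25), and the groups were separate. In lymphoid-gated cells they overlapped, with 5.39, 9.0 and 3.34 CPM against 4.04, 8.82, 9.39 and 7.32 CPM, and the ratio was -0.04 in list A and -1.13 in list B. Wdr49 was lower in granule-gated cells by -2.17 (SE 0.32, adjusted p = 1.75e-05, edgeR, lower in 7 of 7 libraries). It was higher in lymphoid-gated cells by 0.99 (adjusted p = 0.0187, edgeR), and this call was lost in list A alone (adjusted p = 0.0696) and with a stricter gate (adjusted p = 0.0580).

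The counts by state are a description, since the states' shares differed between the labels whose difference chose the genes, and nothing particular to these genes is read from them. In all, 6 of the 9 genes tested were higher in lymphoid-gated cells and 2 lower, where 23.9% of all tested genes passed, 12.7% as higher and 11.1% as lower. In stem-gated cells 3 of 9 were higher and 2 lower, where 52.7% of all tested genes passed, 24.4% as higher and 28.3% as lower. In granule-gated cells 0 of 8 were higher and 7 lower, where 61.7% of all tested genes passed, 29.6% as higher and 32.2% as lower (edgeR). All 8 had a negative value there, and Itgb5 was the 1 that did not pass. The median log2 fold change of the genes tested was 0.99 in lymphoid-gated, -0.05 in stem-gated and -1.47 in granule-gated cells, against 0.01, -0.0049 and -0.04 over all tested genes.

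In the label fit within stem-gated cells 0 of 9 genes passed (edgeR), where 0.0605% of all tested genes did, 0.0378% as higher and 0.0227% as lower. At an unadjusted p under 0.05 (edgeR) there were 8 of the 9, against 585 of all 13219 tested genes. Within lymphoid-gated cells Chl1, Gria2 and Rftn2 passed, 3 of 9, where 0.32% of all tested genes did, 0.225% as higher and 0.095% as lower. The choice of the genes bears on these counts too. Every KO library lay below every WT library for 6 of the 9 genes tested in stem-gated cells (Nxph1, Kcnd3, Actn2, Rftn2, Itgb5 and Wdr49), where 0.666% of all tested genes did. In lymphoid-gated cells this held for 7 of 9 (Chl1, Gria2, Fam155a, Nxph1, Actn2, Rftn2 and Slc22a3), where 1.13% of all tested genes did. Giving each library the same mix of 5 states (granule, lymphoid, stem, Flt3 and no marker) moved the median log2 KO over WT ratio from -2.19 to -1.15 over the 9 genes with enough counts in list A, and from -1.38 to -1.02 over the 10 in list B. The Actn2 ratio moved from -2.85 to -1.54 in list A and from -1.71 to -1.29 in list B, that of Wdr49 from -1.85 to -0.70 and from -1.41 to -1.06, and that of Itgb5 from -1.29 to -1.11 and from -0.67 to -0.44. With the same mix the groups overlapped for Fam155a and Itgb5. The same mix was computed for these 10 genes only, so no share over all genes can be set beside these values. The genes were chosen as lower in KO, so the values describe them and are not read as a result particular to them.

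**Figure D5:**
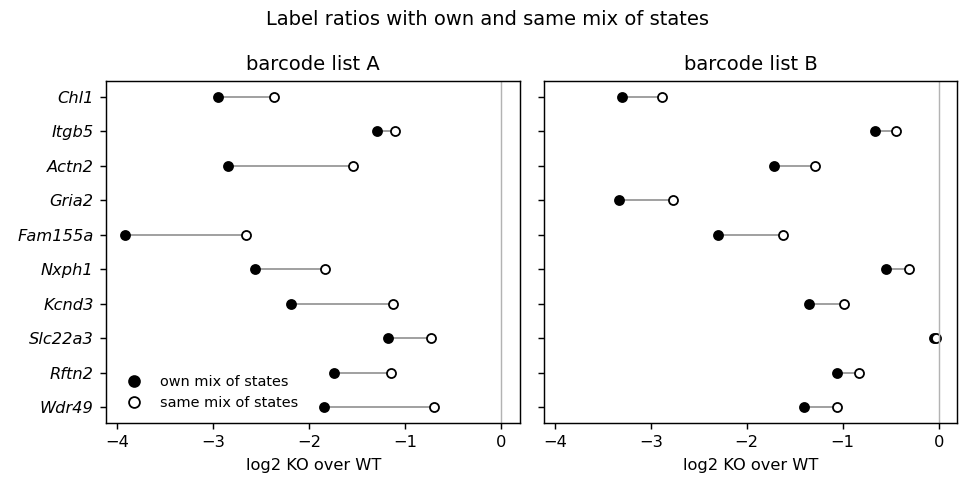
Log2 KO over WT ratio of each gene within barcode list A (2 KO, 3 WT libraries) and list B (1 of each), filled with each library's own mix of 5 states and open with the same mix in all, from CPM scaled by total UMIs. Open points lie nearer 0 than filled ones for every gene drawn, and Slc22a3 in list B lies at -0.05 and -0.02.

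The relatives of these genes were compared by family. Of 96 relatives (L1 family and contactins, glutamate receptors, neurexophilins and neurexins, Kv4 channels and partners, the NALCN complex, actinins and Z-disc proteins, raftlins and flotillins, organic ion transporters, integrins and genome neighbours) 56 could be tested over all kept cells. Of these 2 were higher in KO, Slc22a4 and Gria3, and 0 lower (edgeR), where 1.11% of all tested genes passed. At an unadjusted p under 0.05 there were 16 of the 56, 10 of them lower, against 2792 of all 14608 tested genes. DESeq2 called 11 of the 56, 7 of them lower, against 856 of all 14608, 464 of them lower. Their median log2 difference was -0.05, against 0.01 over all tested genes. Slc22a4, a carnitine and ergothioneine transporter, was read at 22.8, 22.4 and 4.79 CPM in KO and 5.78, 4.92, 3.45 and 1.82 CPM in WT (2.01, SE 0.22, adjusted p = 0.0115, edgeR), and was higher in granule-gated cells by 2.68. Of the listed genome neighbours, Serpini1 and Pdcd10 near Wdr49 had label differences of -0.75 and 0.02 (adjusted p = 0.0572 and 0.946, edgeR), and Igf2r near Slc22a3 one of -1.32 (adjusted p = 0.0937, edgeR). Serpini1 and Igf2r were among those DESeq2 called. Of the beta integrins, Itgb2, Itgb3 and Itgb7 had label differences of 0.11, 0.42 and 0.05 (adjusted p = 0.868, 0.271 and 0.885, edgeR).

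Across 34 sums of library and state with at least 50 cells, the genes outside the 10 and the markers whose log2 CPM followed the mean profile of the 10 most closely were Arhgef3, Cobll1, Ccser1, Npas2 and Lrrc49 (Pearson r 0.846, 0.835, 0.835, 0.832 and 0.825). The 10 themselves had r from 0.536 (Slc22a3) and 0.551 (Kcnd3) to 0.853 (Rftn2) with that mean. Sums of 1 library share its depth and preparation, so these values describe likeness only.

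The glia and neuron markers summed over 8 genes to 3.74, 5.91 and 6.03 CPM in KO and 5.41, 8.60, 7.58 and 6.74 CPM in WT, and Snap25 was at 0 in 6 of the 7 libraries. Their part in the label differences was not tested.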

How the data were processed

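The deposited files hold raw UMI counts per gene and barcode from 10x Genomics 3' libraries, and these values were made by the authors with Cell Ranger 7.0.0, as the headers of the matrices state. The submitters' processing notes also name Seurat 4.4.0 and the build mm10. The genes described and the lists of relatives and markers were chosen with earlier results of these data known. Counts were summed per library over all kept cells and per marker gate and tested with edgeR 4.0.16 in R 4.3.3 (TMM scaling, filterByExpr, robust quasi-likelihood, Benjamini-Hochberg over all tested genes, two-sided), with the barcode list as covariate in label contrasts and the library as block in state contrasts. DESeq2 1.42.0 was an alternative. Levels in the label comparisons are TMM-scaled CPM, and levels compared between states are scaled by total UMIs. Library totals were 14970791 to 89747946 UMIs over all barcodes. Within-list ratios needed over 3 UMIs in each group.

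Gates were applied in the order mature, granule, megakaryocyte, erythroid-basophil, lymphoid, stem, Flt3, no marker. Doublets were not called. Leaving out the 5% of cells with the most UMIs in each library was an alternative. Genes named are the 10 chosen, relatives that passed, paralogues from a short list that passed the filter, 5 genes by profile and B4galt1. Muc13, the genome neighbours and the relatives under the filter were named after their values were seen. The lymphoid-gated label contrast and the equal mix of states were added after seeing the data. On simulated counts the fit recovered 100% of 198 tested genes changed by 2 on the log2 scale in the label contrast over 14705 genes, with 13 false calls. The changed genes lay above a minimum mean count, the dispersion was fixed, and libraries of a list shared an expected profile. Smaller differences and shifts of state shares between libraries were not simulated, so the recovery does not carry over to them.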

Additional observations from a re-analysis of the deposited data

Results flagged for a closer look

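Slc22a3 over all kept cells had a log2 KO over WT ratio of -1.07 in barcode list A, where both KO libraries lay below all 3 WT libraries, and of 0.0567 in list B, where KO 3 lay above WT 4. The difference between the lists was not tested. List B has 1 library per label.

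In 39 groups of 4 WT libraries (the 10 genes over all kept cells and in stem-gated, lymphoid-gated and granule-gated cells), 4 had 1 library far from the others, and chance gives about 1 in 20 groups. Kcnd3 in stem-gated cells was highest in WT 3, at 13.8 CPM. Slc22a3 in lymphoid-gated cells was highest in WT 3, at 91.1 CPM. In granule-gated cells Rftn2 was lowest in WT 2, at 4.42 CPM, and Gria2 was at 0.16 CPM in WT 4 and at 0 in the other WT libraries.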

How the results depend on the processing

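Over all kept cells 162 genes differed by label in the fit with the barcode list. The count was 856 with DESeq2, 547 without a gene filter, 362 in list A alone and 0 without the list (697 at an unadjusted p under 0.05), and 16 to 349 when 1 library was left out (16 without WT 3, 349 without KO 3). In stem-gated cells 8 differed, with 58, 209, 19 and 0 under the same settings (132 at an unadjusted p under 0.05 without the list) and 2 to 30 with 1 library left out. In lymphoid-gated cells 37 differed, with 82 by DESeq2, 234 unfiltered and 0 without the list (165 at an unadjusted p under 0.05). Among the relatives 2 passed, with 11, 7, 5 and 0 under these settings (9 at an unadjusted p under 0.05) and 1 to 5 with 1 library left out. No label count above 0 was found without the list. The 6877 genes of the stem contrast were 4568 in KO libraries alone. The 3177 of the lymphoid contrast were 1411 in KO libraries alone and 1711 in list A alone. With upper-quartile scaling the stem contrast called 4205 genes higher and 2879 lower, against 3183 and 3694.

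With the replicate block, the label counts were 2277, 143 and 190, and 11 among the relatives. The block and list terms take up KO 3, WT 3 and WT 4. The label difference in that fit therefore rests on KO 1, KO 2, WT 1 and WT 2 alone. The labels do not say whether the numbers pair the samples. Deviations from group means do not settle it, because they were not adjusted for the barcode list. Same-numbered libraries correlated at 0.60, 0.81 and -0.44. Against the other list A WT libraries, KO 1 correlated at 0.34 (WT 2) and 0.27 (WT 3), and KO 2 at 0.55 (WT 1) and 0.43 (WT 3). KO 3 correlated at 0.91 with WT 4, its list partner. The block reversed Chl1 in stem-gated cells (0.13) and Wdr49 in lymphoid-gated cells (0.20).

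For the 10 genes over all kept cells, none of 150 alternative values turned the direction and 26 moved by more than the standard error. The genes were chosen as lower in KO in these same libraries, so the unchanged direction was largely fixed in advance. Leaving out 1 library gave -2.62 to -1.38 for Nxph1, -6.01 to -4.05 for Gria2 and -1.09 to -0.57 for Slc22a3. The stem contrast of Actn2 was reversed in KO libraries alone (0.23). Few UMIs limit Gria2, Fam155a and Chl1 in KO libraries.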
